A study of Mus musculus with 8 samples.

Results

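The genes described here are 43 genes of DNA replication and of the passage from G1 into S phase, found by symbol among the 22013 rows of the deposited count table. Each of the 43 symbols matched 1 row, and all 43 passed the filter on low counts. They were measured by RNA-seq in RAW264.7 cells, a macrophage-like mouse line made by transformation with a leukemia virus. The cells were treated for 24 h with recombinant FSTL1 (rFSTL1), a form of the secreted glycoprotein follistatin-like 1, at 100 ng/mL or with phosphate-buffered saline (PBS), and 4 libraries were sequenced in each group. The labels do not say whether the 4 libraries of a group came from separate cultures, so the p-values measure the spread between libraries, which may be technical. The question was whether the higher level of Cdkn1a under rFSTL1 came with lower expression of S-phase genes. Cdkn1a was 41.5% higher under rFSTL1. Of the 43 genes, 0 passed edgeR's adjusted p of 0.05 (0.344% of all tested genes did), 6 had an unadjusted p under 0.05 (15.9% of all tested genes did), and 1 was called by DESeq2 (background 1.83%) and by limma voom (background 4.22%). That gene was Ccnd1, which encodes cyclin D1 and was 14.6% higher. The summed level of the replication genes differed by less than the spread between libraries.

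DNA replication starts when the origin recognition complex, CDC6 and CDT1 load the MCM2 to MCM7 ring onto DNA in G1. CDC45 and GINS then turn the ring into an active helicase, and the clamp PCNA, its loader RFC and the polymerases copy the opened strands. Cyclin D with CDK4 and cyclin E with CDK2 phosphorylate RB1, which frees E2F factors to transcribe many of these same genes. Cdkn1a encodes p21, which inhibits cyclin-dependent kinases and also binds PCNA, and Cdkn1b encodes the related inhibitor p27. In many cell types a strong rise of p21 is known to be followed by lower transcription of E2F and cell cycle genes. RAW264.7 cells divide continuously in culture.

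Since E2F factors drive much of this program, the promoters of the genes were searched for E2F-type letters. The RefSeq promoter table (GRCm38.p6), which gives 250 bases before and 50 bases after each start, held 34 of the 43 genes. The letters searched on both strands were TTTCCCGC, TTTCGCGC, TTTGCCGC and TTTGGCGC, and overlapping matches were allowed. At least 1 match lay in a window of 15 of the 34 genes (44.1%), and in 2.61% of the 27025 genes of the table. By window, the share was 37.5% of 40 windows of these genes and 2.26% of all 32851 windows. These are matches of letters and no binding was measured. The 150 bases before the start are printed for 4 genes that hold the letters there and that differ in their values below. Mcm6 is a helicase subunit with 3 matches, 2 of them overlapping, Cdc6 is a helicase loader, and Orc1 and Gins3 had rFSTL1 libraries that all lay on opposite sides of the PBS libraries. For Mcm6 the bases after the RefSeq start were not found in a GENCODE transcript, unlike for the other 3 genes, so the position of its start is less certain. Capitals mark the matched letters.
Mcm6 (chr1:128359706-128359855, minus strand): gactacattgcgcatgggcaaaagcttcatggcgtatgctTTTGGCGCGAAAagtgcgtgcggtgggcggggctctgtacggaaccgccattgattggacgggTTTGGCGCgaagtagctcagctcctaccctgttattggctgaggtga
Cdc6 (chr11:98908001-98908150, plus strand): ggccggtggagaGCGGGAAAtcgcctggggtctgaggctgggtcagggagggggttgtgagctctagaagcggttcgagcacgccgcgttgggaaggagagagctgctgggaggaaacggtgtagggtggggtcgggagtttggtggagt
Orc1 (chr4:108579304-108579453, plus strand): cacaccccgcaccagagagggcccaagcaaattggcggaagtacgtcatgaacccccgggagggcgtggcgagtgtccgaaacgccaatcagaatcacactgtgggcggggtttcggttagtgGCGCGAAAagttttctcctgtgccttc
Gins3 (chr8:95633409-95633558, plus strand): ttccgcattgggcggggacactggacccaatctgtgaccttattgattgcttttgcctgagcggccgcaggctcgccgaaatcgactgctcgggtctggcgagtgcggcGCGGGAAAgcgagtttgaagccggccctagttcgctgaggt
The median log2 fold change under rFSTL1 was 0.03 over the 15 genes with the letters and 0.02 over the 19 genes without them.

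The deposited values are estimated read counts per gene. Library totals ran from 15062023 to 20234477 counts, and the genes described here had 380.0 to 10445 counts in a library. Levels are given in CPM, a count scaled to its library's total with TMM factors from edgeR. The 10748 genes left by the filter were compared by the quasi-likelihood test of edgeR, whose p-values were adjusted over all of them by the Benjamini-Hochberg (BH) method. The 8 macrophage markers checked summed to 4651 to 4798 CPM under PBS and 4700 to 4879 CPM under rFSTL1, with Adgre1 the lowest at 2.74 to 4.43 CPM. Of the markers of other cell types, Cd3e (T cells) and Epcam (epithelium) were at 0 in all 8 libraries, and the highest level of Pecam1, Cdh5, Col1a1, Col1a2 or Alb in a library was 0.801 CPM. The rFSTL1 libraries differed more among themselves than the PBS libraries, with chi-square values of 4.52 to 19.1 per degree of freedom between pairs under rFSTL1, highest for replicates 2 and 4, and of 3.05 to 4.23 under PBS.

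Cdkn1a (ENSMUSG00000023067), which is not one of the 43 genes, had 28.6, 25.2, 26.2 and 24.4 CPM under PBS and 36.3, 39.0, 34.8 and 37.7 CPM under rFSTL1. Every rFSTL1 library lay above every PBS library. Its log2 fold change was 0.50 (standard error 0.07, 95% interval 0.36 to 0.64), which is 41.5% higher, with an adjusted p of 0.00363 by edgeR and BH. This increase was known when the question was set, so it is a starting point here and not an independent result. The 34 genes of the replication machinery summed to 5386, 5239, 5200.0 and 5169 CPM under PBS and 5314, 5149, 5286 and 5371 CPM under rFSTL1. Their group means were 5248 ± 96.0 and 5280.0 ± 94.1 CPM (SD, n = 4 each), and the libraries of the groups overlapped over most of their range. The sum was 0.602% higher under rFSTL1, against a coefficient of variation of 1.83% among the PBS libraries. In bulk RNA, a change in the share of cells in S phase and a change of these mRNAs per cell cannot be told apart.

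**Figure D1:**
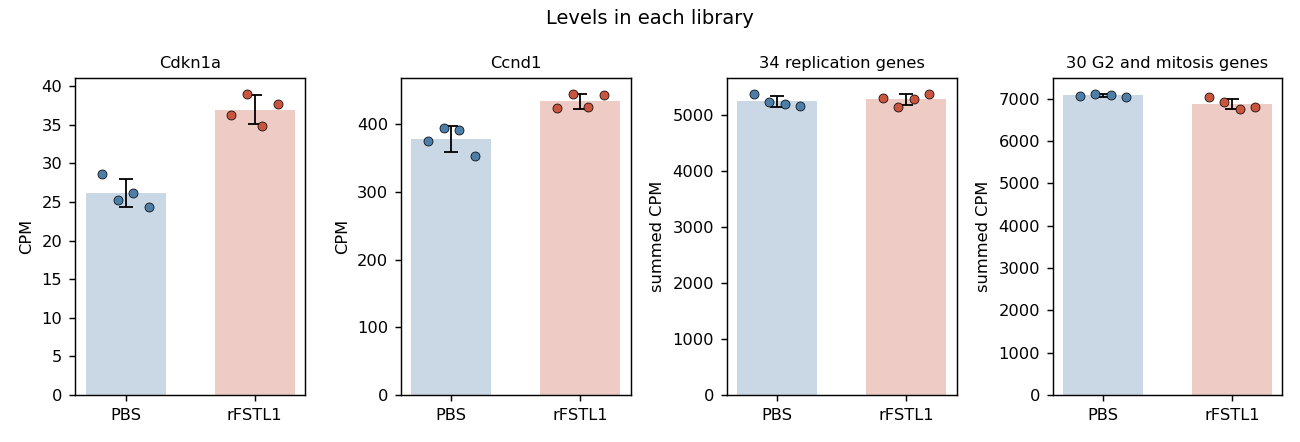
Levels in each library under PBS (blue) and rFSTL1 (red): Cdkn1a and Ccnd1 in CPM, and the summed CPM of the 34 replication genes and of 30 G2 and mitosis genes. Points are libraries, bars are group means and error bars are SD (n = 4). Cdkn1a and Ccnd1 libraries do not overlap between the groups, while the replication sums lie at 5149 to 5386 CPM over the 8 libraries and overlap.

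Among the 43 genes, 0 passed an adjusted p of 0.05 by edgeR, in either direction. The background was 0.344% of all tested genes (37 of 10748), with 0.326% higher and 0.0186% lower. DESeq2 called 1 of the 43 genes, against 1.83% of all tested genes, limma voom called 1, against 4.22%, and edgeR with no count filter called 1, against 0.863%. In each it was Ccnd1, which was higher. An unadjusted edgeR p under 0.05 was found for 6 of the 43 genes (14.0%), against 15.9% of all tested genes. Of these, 5 were higher (11.6%, background 8.29%) and 1 was lower (2.33%, background 7.56%). The groups did not overlap for 5 of the 43 genes (11.6%), against 8.16% of all tested genes. The rFSTL1 libraries lay wholly above the PBS libraries for 2 of the genes (4.65%, background 4.63%) and wholly below them for 3 (6.98%, background 3.53%). The log2 fold change was negative for 18 of 43 (41.9%), against 48.0% of all tested genes, and the median was 0.03, against 0.01 over all tested genes. The largest decrease was -0.16 (Gins3) and the largest increase 0.20 (Ccnd1) on the log2 scale.

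The intervals bound the changes only against the spread between libraries, which may be technical. The 95% interval of the log2 fold change, from edgeR's estimate, its standard error and the t distribution, lay wholly above -0.25 for 41 of the 43 genes (95.3%), against 75.7% of all tested genes. A log2 fold change of -0.25 is a decrease of 15.9%. The other two were Gins3, with an interval from -0.28, and Ccne2, with an interval from -0.27. For 35 genes (81.4%, background 55.2%) the whole interval lay within 0.25 of 0 on either side. Both backgrounds are over all genes that passed the filter (minimum count 10), while the 43 genes had at least 380.0 counts in a library. No interval of the 43 reached that of Cdkn1a, which began at 0.36. These bounds were chosen after the values had been seen, and each interval stands for 1 gene with no adjustment over the 43.

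**Figure D2:**
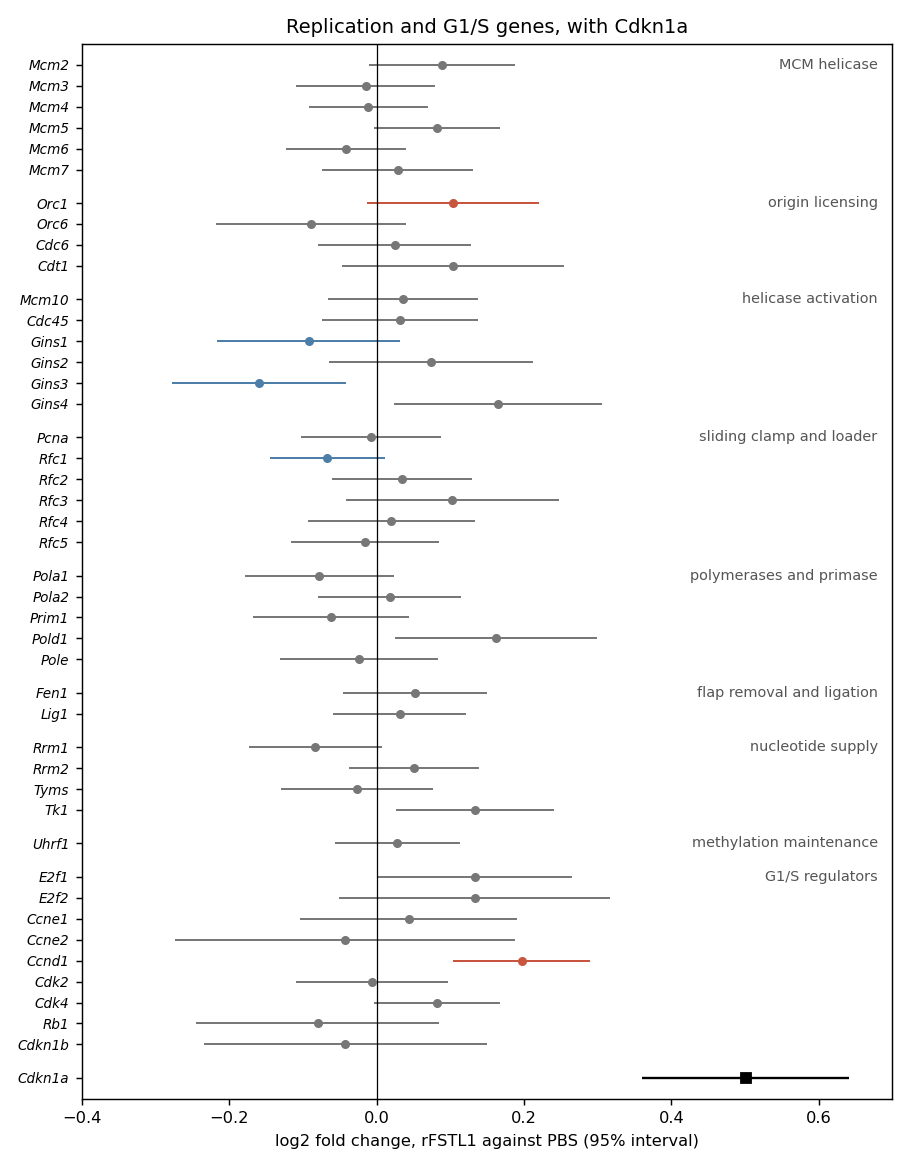
Log2 fold change of each gene, rFSTL1 against PBS, with its 95% interval, grouped by role, and Cdkn1a at the bottom (black square). Red marks genes whose 4 rFSTL1 libraries all lay above the PBS libraries (Orc1, Ccnd1), blue those that all lay below (Gins1, Gins3, Rfc1) and grey the rest. Estimates run from -0.16 to 0.20, against 0.50 for Cdkn1a.

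The 6 genes of the MCM ring, the replicative helicase, differed little between the groups. Mcm5 had 310.0, 311.5, 313.7 and 303.8 CPM under PBS and 325.0, 312.0, 335.8 and 338.6 CPM under rFSTL1. Replicates 1, 3 and 4 under rFSTL1 were above every PBS library and replicate 2 was within the PBS range, and the log2 fold change was 0.08 (standard error 0.04, adjusted p = 0.33, edgeR and BH). Mcm2 had 287, 268, 273 and 269 CPM under PBS and 280.3, 277, 295 and 314 CPM under rFSTL1, with replicates 3 and 4 under rFSTL1 above every PBS library and replicates 1 and 2 within the PBS range. Its log2 fold change was 0.09 (standard error 0.05), and 0.05 without rFSTL1 replicate 4. When the dependence of each library on transcript length and GC content was taken out, hereafter the length and GC correction, Mcm2 was at 0.05 and Mcm5 at 0.04. Mcm3, Mcm4, Mcm6 and Mcm7 had log2 fold changes of -0.02, -0.01, -0.04 and 0.03, each with overlapping groups. Of these, Mcm6, whose promoter window is printed above with 3 matches to the E2F-type letters, had 369 ± 9.10 CPM under PBS and 358 ± 6.10 CPM under rFSTL1 (SD, n = 4 each). The 6 genes summed to 1787 ± 34.9 CPM under PBS and 1810.4 ± 54.4 CPM under rFSTL1 (SD, n = 4 each).

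Among the genes that load the helicase, Cdc6 was nearly level, with 65.1, 63.4, 61.9 and 58.8 CPM under PBS and 63.1, 66.0, 62.1 and 62.5 CPM under rFSTL1. All but replicate 2 under rFSTL1 were inside the PBS range, and the log2 fold change was 0.02 (95% interval -0.08 to 0.13). Orc1, the largest subunit of the origin recognition complex, had 37.5, 37.6, 38.1 and 34.4 CPM under PBS and 39.2, 40.6, 39.2 and 39.7 CPM under rFSTL1. All 4 rFSTL1 libraries lay above all 4 PBS libraries, by 1.12 CPM at the closest, and PBS replicate 4 was low beside the other PBS libraries. Its log2 fold change of 0.10 (standard error 0.06) had an adjusted p of 0.367 by edgeR and BH. The exact two-sided permutation p was 0.0286, the smallest that 4 against 4 libraries allow. Any gene whose groups do not overlap has this p (8.16% of all tested genes do not overlap), so it adds nothing here. Gins1, Gins3 and Rfc1, which were lower, had the same permutation p. Without PBS replicate 4 the log2 fold change of Orc1 was 0.07. Orc6, another subunit of the same complex, had 53.7 ± 3.48 CPM under PBS and 50.5 ± 2.92 CPM under rFSTL1 (SD, n = 4 each), a log2 fold change of -0.09 with overlapping groups.

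Cdt1, which brings the MCM ring to origins, had 101.1, 101.6, 105.0 and 101.2 CPM under PBS and 97.4, 100.5, 110.9 and 129.8 CPM under rFSTL1. Replicates 1 and 2 under rFSTL1 lay below every PBS library, and replicates 3 and 4 above every one. The log2 fold change of 0.10 (standard error 0.07) rested on rFSTL1 replicate 4, and without that library it was 0.01. It was also 0.01 with the length and GC correction.

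The 4 GINS subunits, which form one complex of the active helicase, did not move in one direction. Gins3 had 80.8, 80.2, 79.7 and 90.2 CPM under PBS and 78.3, 77.5, 70.6 and 69.9 CPM under rFSTL1. All 4 rFSTL1 libraries lay below all 4 PBS libraries, and PBS replicate 4 stood above the rest. The log2 fold change was -0.16 (standard error 0.06, adjusted p = 0.207, edgeR and BH), or -10.5%, and it was -0.12 without PBS replicate 4. Gins1 had 32.7, 32.8, 33.6 and 33.0 CPM under PBS and 31.8, 30.3, 32.6 and 29.3 CPM under rFSTL1, again with no overlap, and a log2 fold change of -0.09 (standard error 0.06). Gins4 had the opposite sign, with 35.2, 33.4, 34.6 and 30.6 CPM under PBS and 37.6, 34.9, 36.5 and 41.1 CPM under rFSTL1. Only rFSTL1 replicate 2 fell within the PBS range, and the log2 fold change was 0.16 (standard error 0.07, adjusted p = 0.252, edgeR and BH). It was 0.10 with the length and GC correction. Gins2, Cdc45 and Mcm10, the last of which helps to activate the helicase, had log2 fold changes of 0.07, 0.03 and 0.04 with overlapping groups.

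Pcna, the sliding clamp that p21 binds, had 457, 435, 416 and 416 CPM under PBS and 453, 424, 428 and 410.3 CPM under rFSTL1. The ranges of the groups almost coincided, and the log2 fold change was -0.01 (95% interval -0.10 to 0.09), whose lower end is a change of -6.88%. Rfc1, the large subunit of the clamp loader, had 217.0, 217.3, 216.1 and 218.8 CPM under PBS and 208.0, 208.4, 204.7 and 208.6 CPM under rFSTL1. The groups did not overlap, and were 7.43 CPM apart at the closest, with little spread within each. Its log2 fold change of -0.07 (standard error 0.04) had an adjusted p of 0.382 by edgeR and BH, and it was -0.04 with the length and GC correction. Rfc2, Rfc3, Rfc4 and Rfc5, the small subunits of the loader, had log2 fold changes of 0.03, 0.10, 0.02 and -0.02, and their groups overlapped.

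Of the polymerase genes, Pold1, the catalytic subunit of polymerase delta, had 97.3, 92.5, 95.4 and 99.0 CPM under PBS and 100.0, 96.1, 110.2 and 123 CPM under rFSTL1. Replicates 3 and 4 under rFSTL1 were above the highest PBS library by more than the spread among the PBS libraries, and replicate 2 was within the PBS range. The log2 fold change was 0.16 (standard error 0.06, adjusted p = 0.248, edgeR and BH). It was 0.09 without rFSTL1 replicate 4 and 0.06 with the length and GC correction. Pola1, the catalytic subunit of polymerase alpha, Pola2, its partner, and Prim1, the primase that makes RNA primers, had log2 fold changes of -0.08, 0.02 and -0.06. Pole, the catalytic subunit of polymerase epsilon, had -0.02. Fen1, which trims flaps between lagging-strand fragments, and Lig1, which joins the fragments, had 0.05 and 0.03 on the same scale, all with overlapping groups.

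Among the enzymes that supply deoxynucleotides, Tk1, the salvage enzyme thymidine kinase, had 75.4, 74.4, 74.0 and 67.7 CPM under PBS and 75.0, 81.9, 80.2 and 82.8 CPM under rFSTL1. Replicates 2, 3 and 4 under rFSTL1 were above every PBS library, and replicate 1 was just under PBS replicate 1. The log2 fold change was 0.13 (standard error 0.05, adjusted p = 0.228, edgeR and BH), and 0.09 with the length and GC correction. Rrm2, the small subunit of ribonucleotide reductase, whose level is tied to S phase, had 328, 334, 329.8 and 315 CPM under PBS and 355, 332, 326 and 339 CPM under rFSTL1, with a log2 fold change of 0.05 (standard error 0.04) and overlapping groups. Without rFSTL1 replicate 1 it was 0.02, and without PBS replicate 4 it was 0.03. Rrm1, the large subunit, had 417 ± 9.70 CPM under PBS and 393 ± 18.6 CPM under rFSTL1 (SD, n = 4 each), a log2 fold change of -0.08. Tyms, which makes thymidylate, had -0.03 on that scale. Uhrf1, which directs maintenance methylation to newly copied DNA, had 255 ± 7.57 CPM under PBS and 260.0 ± 5.97 CPM under rFSTL1 (SD, n = 4 each), a log2 fold change of 0.03.

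The regulators of G1/S held the gene with the largest difference. Ccnd1 (ENSMUSG00000070348), which encodes cyclin D1, had 375, 395, 392 and 353 CPM under PBS and 424, 445, 425 and 443 CPM under rFSTL1. All 4 rFSTL1 libraries lay above all 4 PBS libraries, and the lowest of them exceeded the highest PBS library by 29.7 CPM. The means were 379 ± 19.2 CPM under PBS and 434 ± 11.2 CPM under rFSTL1 (SD, n = 4 each), a log2 fold change of 0.20 (standard error 0.04, 95% interval 0.10 to 0.29), or 14.6% higher. The adjusted p was 0.0673 by edgeR and BH, over the threshold of 0.05, and at a threshold of 0.1 it was the 1 gene of the 43 that passed, against 1.24% of all tested genes. The BH-adjusted p was 0.00425 by DESeq2, 0.0196 by limma voom and 0.0348 by edgeR with the length and GC correction. The exact two-sided permutation p was 0.0286, the smallest possible, which follows from the lack of overlap alone. Cdk4, the kinase partner of cyclin D1, had 506, 488, 476 and 480.4 CPM under PBS and 505, 496, 527 and 536 CPM under rFSTL1. Replicates 3 and 4 under rFSTL1 were above the PBS range and replicates 1 and 2 inside it. The log2 fold change was 0.08 (standard error 0.04), and 0.02 with the length and GC correction.

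Cyclin E and its kinase showed no shift larger than the spread between libraries. Ccne1 had 45.4, 36.5, 44.6 and 40.1 CPM under PBS and 44.0, 40.5, 42.7 and 44.6 CPM under rFSTL1, and all 4 rFSTL1 libraries were inside the PBS range. Its log2 fold change was 0.04 (standard error 0.07). Ccne2 had the highest coefficient of variation of the 43 genes under rFSTL1, 18.7%, with 81.4, 101.2, 91.3 and 76.9 CPM under PBS and 96.6, 101.5, 75.4 and 68.6 CPM under rFSTL1. Replicate 1 was within the PBS range, replicate 2 just above it, and replicates 3 and 4 below its lowest library, and the log2 fold change was -0.04 (standard error 0.11). Cdk2, the kinase partner of cyclin E, had 94.9 ± 6.02 CPM under PBS and 94.5 ± 0.507 CPM under rFSTL1 (SD, n = 4 each), a log2 fold change of -0.01.

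E2f1, an activating E2F factor, had 44.4, 39.8, 41.1 and 43.7 CPM under PBS and 42.3, 44.8, 48.3 and 49.4 CPM under rFSTL1. Replicates 2, 3 and 4 were above the highest PBS library, and the log2 fold change was 0.13 (standard error 0.06, adjusted p = 0.313, edgeR and BH). With the length and GC correction it was 0.04. E2f2, a second activator, had 27.9 ± 2.48 CPM under PBS and 30.6 ± 3.53 CPM under rFSTL1 (SD, n = 4 each), a log2 fold change of 0.13 (standard error 0.09). Rb1, the pocket protein that holds E2F factors inactive, had 32.7, 36.4, 30.7 and 36.0 CPM under PBS and 35.1, 34.3, 30.8 and 28.6 CPM under rFSTL1, with a log2 fold change of -0.08 (standard error 0.08) that ranged from -0.13 without rFSTL1 replicate 1 to -0.03 without rFSTL1 replicate 4. With the length and GC correction it was 0.000208. Cdkn1b, which encodes p27, had 55.7, 69.5, 71.2 and 60.2 CPM under PBS and 68.2, 69.0, 61.5 and 51.6 CPM under rFSTL1. Its groups overlapped, rFSTL1 replicate 4 was the lowest of all 8 libraries, and the log2 fold change was -0.04 (standard error 0.09). Its 95% interval (-0.23 to 0.15) did not overlap that of Cdkn1a (0.36 to 0.64), although the difference between the genes was not tested. The level of Cdkn1a relative to that of Ccnd1 in the same library (the ratio of their CPM, in percent) was 6.40 to 7.62% under PBS and 8.19 to 8.78% under rFSTL1, which is a description and was not tested.

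Single libraries within a group differed in how the genes lay. Relative to each gene's PBS mean, 26, 22, 25 and 27 of the 43 genes were higher in rFSTL1 replicates 1 to 4, against 30, 22, 20 and 14 in PBS replicates 1 to 4. The median deviation from the PBS mean ran from -0.03 to 0.03 on the log2 scale among the PBS libraries and from 0.00 to 0.05 among the rFSTL1 libraries. The widest single deviations were both in rFSTL1 replicate 4, -0.35 for Ccne2 and 0.35 for Pold1. The 43 genes were steady between libraries, with a median coefficient of variation of 4.29% under PBS and 4.33% under rFSTL1, against 5.37% and 7.44% over all tested genes. Because the spread of a gene also falls with its count, this is a description and was not tested.

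**Figure D3:**
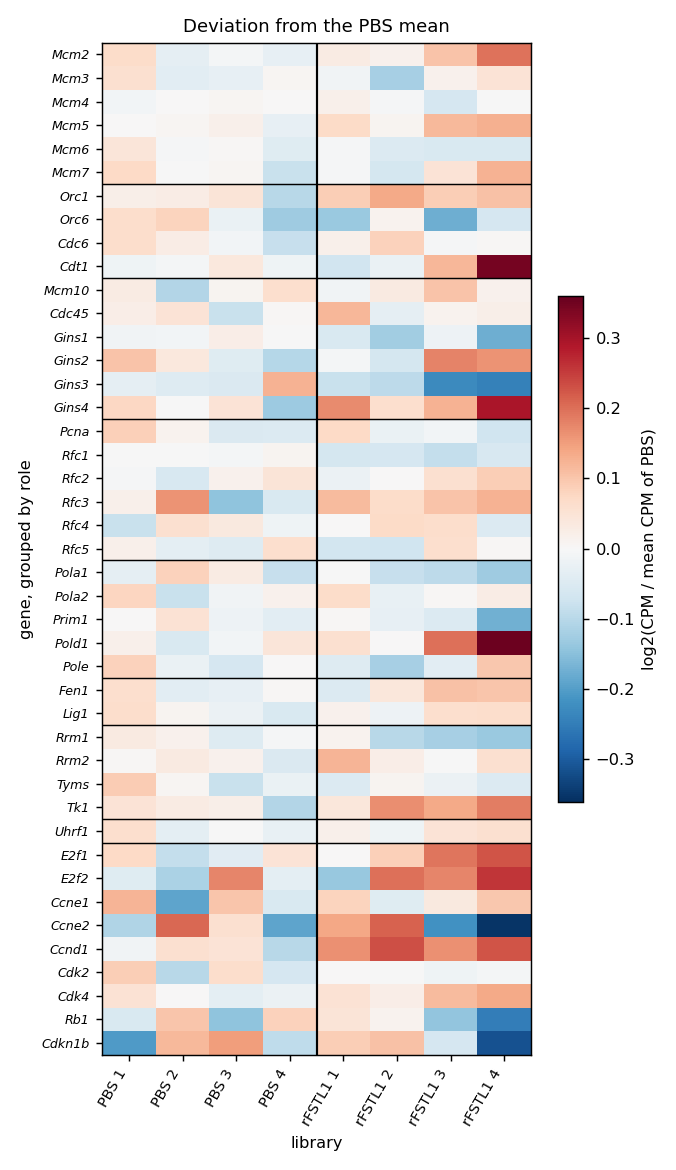
Level of each gene in each library as log2 of its CPM over its mean CPM under PBS, with rows grouped by role and libraries as columns (left of the line PBS, right rFSTL1). The Ccnd1 row is above the PBS mean in all 4 rFSTL1 libraries, while Cdt1, Pold1, Ccne2 and Cdkn1b depart most in rFSTL1 replicate 4.

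Levels were compared between genes only per length, as CPM per kilobase of the longest GENCODE transcript. Pcna was the highest, at 284 ± 12.9 CPM per kilobase under PBS (SD, n = 4), and E2f2 the lowest, at 5.89 ± 0.522. This is a 48.2-fold range of mean level. The highest genes after Pcna were Cdk4 (238 ± 6.41), Rrm2 (149 ± 3.77) and Mcm3 (105 ± 3.23), and the lowest besides E2f2 were Rb1 (7.30 ± 0.583) and Rfc3 (11.4 ± 1.03), all in CPM per kilobase under PBS. Of the 42 neighbouring pairs in this order, 29 had overlapping PBS libraries, so much of the order is not resolved. Within the MCM ring, whose 6 proteins are used in equal number, the levels were close, from 105 (Mcm3) through 91.6 (Mcm5), 84.7 (Mcm6), 78.6 (Mcm2) and 72.6 (Mcm4) to 71.4 (Mcm7) CPM per kilobase. There the libraries of Mcm6 and Mcm2 overlapped under PBS, and so did those of Mcm4 and Mcm7. Cdkn1a stood at 12.6 CPM per kilobase under PBS and 17.8 under rFSTL1, and Cdkn1b at 14.1 and 13.7, so the order of these means was reversed under rFSTL1. The libraries of these genes overlapped under PBS and did not under rFSTL1. Transcript lengths came from an annotation that may not be the authors', so differences between genes also carry any error in length.

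Other genes of the same and of neighbouring processes were read from 4 further lists. Of 46 further replication genes, all tested, 0 passed a BH-adjusted p of 0.05 by edgeR, DESeq2 or limma voom, and by edgeR 1 higher and 3 lower had an unadjusted p under 0.05, where the background is 8.29% and 7.56%. Of the 46 genes, 29 had a negative log2 fold change, against 48.0% of all tested genes, and the median was -0.02, against 0.01. The 4 with the smallest p were Orc2 (-0.13) and Orc5 (-0.13), both origin recognition subunits, Topbp1 (-0.09), which acts in helicase activation and checkpoint signaling, and Chtf18 (0.17), of an alternative clamp loader. The rFSTL1 libraries lay wholly below the PBS libraries for 2 of the 46 genes (background 3.53%) and wholly above them for 0 (background 4.63%). The 2 genes were Orc2 and Topbp1, with 134 to 144 CPM under PBS and 116 to 133 CPM under rFSTL1 for Orc2 and 275 to 288 CPM under PBS and 256 to 273 CPM under rFSTL1 for Topbp1.

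Of 26 further G1/S regulators, 23 were tested and 1 passed by edgeR, Cdkn1a itself (background 0.344%). DESeq2 called Ccnd3 as well (background 1.83%), and limma voom both Ccnd3 and Cdkn2d (background 4.22%). At an unadjusted edgeR p under 0.05, 4 were higher (background 8.29%) and 1 was lower (background 7.56%), Cdkn1a included. The rFSTL1 libraries were wholly above the PBS libraries for 3 (background 4.63%), again with Cdkn1a, and wholly below them for 1 (background 3.53%). The next smallest p-values belonged to Ccnd3, Cdkn2d and Tfdp2. Ccnd3, which encodes cyclin D3, had 50.9, 50.1, 48.8 and 55.5 CPM under PBS and 58.5, 56.7, 61.8 and 67.3 CPM under rFSTL1, with no overlap. Its log2 fold change was 0.25 (standard error 0.06, adjusted p = 0.089, edgeR and BH). Cdkn2d, a CDK4 and CDK6 inhibitor of the INK4 family, had 29.4, 31.0, 29.9 and 29.1 CPM under PBS and 34.4, 35.8, 34.9 and 33.1 CPM under rFSTL1, also with no overlap, and a log2 fold change of 0.21 (adjusted p = 0.127, edgeR and BH). Tfdp2, a dimer partner of E2F factors, was the one of the 4 with lower values, with 34.4 to 39.3 CPM under PBS and 29.7 to 33.1 CPM under rFSTL1 and a log2 fold change of -0.18. Ccnd2 and Myc were named after their values were seen. Ccnd2, the third D-type cyclin, differed by 0.07 on the log2 scale (standard error 0.09). Myc, a growth factor-induced transcription factor, was low, at 1.88 to 2.55 CPM under PBS and 1.85 to 3.87 CPM under rFSTL1, and its log2 fold change of 0.59 carried a standard error of 0.23 (adjusted p = 0.239, edgeR and BH). Cdkn2a and Cdkn2b had 0 counts in all 8 libraries and Cdkn1c at most 2 counts in a library, and these were not tested.

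The 30 G2 and mitosis genes were all tested and 0 passed by edgeR or DESeq2, with 3 lower and 0 higher at an unadjusted edgeR p under 0.05. The background is 7.56% lower and 8.29% higher. Limma voom called 2, Cenpe and Cenpf, both lower, against 4.22% of all tested genes. The list's sum was 7059.9, 7120.3, 7078 and 7036 CPM under PBS and 7029, 6924, 6761 and 6798 CPM under rFSTL1. The groups did not overlap and the mean changed by -2.76%. The sum was taken without the length and GC correction, and it was lowest in rFSTL1 replicates 3 and 4. Of the 30 genes, 13 had a positive log2 fold change and 17 a negative one, against 48.0% negative over all tested genes. The median of the list was -0.01, against 0.01. The rFSTL1 libraries lay wholly below the PBS libraries for 2 of the 30 genes (background 3.53%) and wholly above them for 0 (background 4.63%). Mki67 and Top2a, named after their values were seen because they made up 34.1% and 25.7% of the change in the sum, had log2 fold changes of -0.07 and -0.09, while the largest increase was 0.09 (Aurkb). The replication sum of the same libraries did overlap, but the difference between the sums was not tested. Cenpe (-0.14, with 247 to 255 CPM under PBS and 218 to 240.2 CPM under rFSTL1), a kinetochore motor, Cenpf (-0.14), a kinetochore protein, Nusap1 (-0.12), which bundles spindle microtubules, and Kif11 (-0.08), a spindle motor, had the smallest p of this list. Of 21 p53-linked genes, 16 were tested and 1 passed by edgeR, again Cdkn1a (background 0.344%), with 4 higher and 2 lower at an unadjusted p under 0.05 (background 8.29% and 7.56%). DESeq2 and limma voom also called Plk2 (background 1.83% and 4.22%). Plk2, a polo-like kinase, had a log2 fold change of 0.44 (adjusted p = 0.0993, edgeR and BH), while Sesn1 and Ccng1, both known targets of p53, had -0.22 and -0.18. Cdkn1a is on both this list and that of the G1/S regulators, and Rrm2b is on both this list and that of the replication genes.

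**Figure D4:**
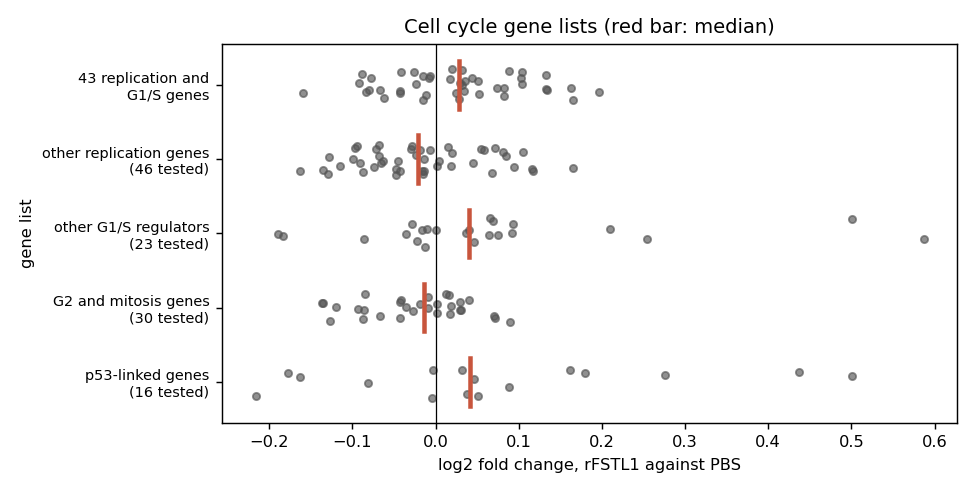
Log2 fold change, rFSTL1 against PBS, of each tested gene in 5 lists, with the median of each list as a red bar. Medians lie between -0.02 and 0.04, and the points beyond 0.40 are Cdkn1a (on 2 lists), Myc and Plk2.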

How the data were processed

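The 8 libraries of RAW264.7 cells were grouped by their treatment label, 4 per group. The authors deposited expected counts (estimated counts) for 22013 genes, without normalization, and 13.0% of the nonzero values were not whole. The submitters' processing notes name Bowtie2 2.2.8, HISAT2, StringTie 1.3.1 and DESeq2, and the genome build and annotation are not given in the sources used here. How the counting divided reads of paralogs or of overlapping genes is therefore unknown.

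Counts were rounded and filtered with filterByExpr (minimum count 10), which left 10748 genes. These were scaled by TMM and compared in edgeR 4.0.16 (R 4.3.3) by glmQLFit and glmQLFTest, with a threshold of 0.05 on the p adjusted by Benjamini-Hochberg (BH) over all genes. The standard error is the log2 fold change divided by the square root of F. Exact permutation tests used log2(CPM + 1) over all 70 assignments. In simulated counts for this comparison (10706 genes), 99% of genes changed by 1 and 95% of those changed by 0.5 on the log2 scale were recovered. Of the calls, 5.83% were false. The changes were put only into genes above a minimum mean CPM, with the same dispersion in both groups. Changes smaller than 0.5 were not simulated, so these rates do not cover the 43 genes, which differed by -0.16 to 0.20.

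The genes, lists and alternatives were chosen with earlier results of these data known. Every one of the 43 genes is accounted for. Values per library are given for a fixed set of genes, for any with an unadjusted p under 0.05 and for any whose groups did not overlap. Up to 4 genes with the smallest p are named per further list. Alternatives were DESeq2 1.42.0, voom in limma 3.58.1 (with quality weights per sample), scaling by upper quartiles or by totals only, no count filter, a threshold of 0.1, the replicate number as a block, leaving out each library, and a length and GC correction, which takes out a spline over each (4 degrees of freedom per library, GENCODE M21 lengths for 99.7% of tested genes). All library pairs within a group differed by more than sampling noise. Intervals are at 95% and cover the spread between libraries. One marker gene is not reported here.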

Additional observations from a re-analysis of the deposited data

Results flagged for a closer look

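In 5 of 88 sets of 4 libraries, 1 library stood far from the other 3, and chance would give about 4.4. PBS replicate 3 had 105 CPM of Cdt1, with 101 to 102 CPM in the other PBS libraries. PBS replicate 4 had 34.4 CPM of Orc1, against 37.5 to 38.1 CPM, and 90.2 CPM of Gins3, against 79.7 to 80.8 CPM. In rFSTL1 replicate 1, Mcm6 was at 368 CPM, with 354.9 to 356 CPM in the other rFSTL1 libraries. In rFSTL1 replicate 3, Rfc1 was at 205 CPM, with 208 to 209 CPM in the others.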

How the results depend on the processing

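The count of called genes moved most. Where edgeR called 37 of all tested genes, DESeq2 called 197 and limma voom 454, of which 136 and 244 were higher. The count was 56 with upper-quartile scaling, 127 with no count filter, 74 with the length and GC correction, 71 with that correction and the replicate block, and 133 at a threshold of 0.1. The fits without 1 library gave 11 (without PBS replicate 2) to 99 (without rFSTL1 replicate 1). For the 43 genes, the count of 0 became 1 under DESeq2, 1 under limma voom, 1 under upper-quartile scaling, 1 without a count filter, 1 with the length and GC correction, 1 with that correction and the replicate block, and 1 at a threshold of 0.1. In each it was Ccnd1, whose adjusted p by edgeR, DESeq2 or limma was 0.00425 to 0.04999 in the 6 alternatives of the test that called it. The 8 fits that left out 1 library called 0 of the 43 genes, with an adjusted p for Ccnd1 of 0.0542 to 0.294 by edgeR. What causes this was not tested.

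Cdkn1a was called in all 16 alternatives, with a log2 fold change of 0.43 to 0.54. The count of genes with a lower level was 16 to 20 of 43 over the same alternatives. The median log2 fold change of the 43 genes was 0.01 to 0.04. Values under each alternative are given for the 20 genes with values per library. Over all 43 genes, 18 changed sign under at least 1 alternative, 10 of them under the length and GC correction, 2 under upper-quartile scaling, 1 under limma voom and 12 when 1 library was left out, and none of the 18 was called in any fit. In the edgeR fit without any alternative, the log2 fold changes of these 18 genes lay within 0.0801 of 0. Among the 20 genes, upper-quartile scaling turned Pcna to 0.00303. The length and GC correction turned Ccne1 to -0.0134, Ccne2 to 0.0786, Rb1 to 0.000208 and Cdkn1b to 0.0119, and with the replicate block the values were -0.0109, 0.0794, 0.00104 and 0.0167. Leaving out 1 library turned the sign of 5 of the 20 genes, with ranges of -0.0411 to 0.0147 for Pcna, -0.00726 to 0.0382 for Cdc6, -0.0152 to 0.0798 for Ccne1, -0.145 to 0.0489 for Ccne2 and -0.111 to 0.0404 for Cdkn1b.

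The replicate numbers were not taken as pairs, since libraries that share a number deviated from their group means with correlations of -0.090, 0.085, -0.013 and 0.001. With the replicate block, 41 genes were called, 0 of the 43, and edgeR gave Cdkn1a a log2 fold change of 0.50 and Ccnd1 0.20 (adjusted p = 0.0856). Counts of 380.0 or more in a library mean that depth limited none of the 43 genes at the filter.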
